A study of Mus musculus with 26 samples.

Results

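Intermediate filaments are the ropelike system of the cytoskeleton, beside actin and microtubules, and lamins are their relatives inside the nucleus. Expression of 8 genes of this system was followed through muscle regeneration and through the differentiation of C2C12 myoblasts with and without knockdown of Mettl3. Each gene was taken by its symbol, which stood on 1 row of each deposited table, so all 8 were found among 53465 genes in muscle and 55487 in cells. They were Des (desmin), Vim (vimentin), Nes (nestin), Synm (synemin), Sync (syncoilin), Plec (plectin), Lmna (lamins A and C) and Lmnb1 (lamin B1). All 8 passed the filter on low values in both tables.

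The muscle samples were tibialis anterior (TA) muscles of 6-week-old C57BL/6J mice, taken on day 0 and 1, 3, 5 and 10 days after cardiotoxin (CTX), a snake venom toxin that destroys muscle fibres and spares much of the stem cell pool. The methods name male mice and a saline control, but the labels do not say whether the day 0 muscles had received saline. The cells were C2C12, an established mouse myoblast line, in growth medium (GM) or on day 3 in differentiation medium with horse serum (DM3). The knockdown cells (Cas9M3) carried dCas9-KRAB, an inactive Cas9 fused to a repressor domain and driven by a ubiquitin promoter, with guides against the Mettl3 promoter, all from a lentivirus. They were drug-selected stable cells, which the labels call a knockout, and the number of stable lines sequenced is not given. For the control cells (Ctrl) the labels give no vector. Every group had 2 libraries, 10 from muscle and 8 from cells, and the labels do not say whether libraries of a group came from separate animals or cultures. The methods speak of independent biological samples in general, with a minimum number that these groups do not reach, so p-values measure the spread between these libraries, which may be technical. Libraries of cells that overexpress Mettl3 or GFP, 8 samples, were not analysed here.

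The annotated genes lie, on GRCm38, at chr1:75360329-75368579 for Des, chr2:13573927-13582826 for Vim, chr3:87971078-87980451 for Nes, chr7:67730160-67759742 for Synm, chr4:129287617-129308559 for Sync, chr15:76170974-76232574 for Plec, chr3:88480147-88509956 for Lmna and chr18:56707813-56753424 for Lmnb1. Synm, Plec and Lmna are on the minus strand and the others on the plus strand. Des shares exon bases with Gm15179, Synm with Ttc23 and Gm45102, and Sync with Rbbp4, each on the other strand, and Plec shares exon bases with Parp10 on its own strand. Whether the authors' counting used strand is not given in the sources used here, so reads from those stretches may belong to either gene.

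In mature muscle, desmin filaments circle the Z discs and tie neighbouring myofibrils to each other, to the sarcolemma and to the nucleus. Vimentin and nestin are typical of myoblasts, of newly formed fibres and of mesenchymal cells, while synemin and syncoilin join desmin filaments to the dystrophin complex at costameres. Plectin is a plakin that links filaments to Z discs, mitochondria and the outer nuclear membrane. Lamins A and C stiffen the nucleus of differentiated cells, and lamin B1 is a farnesylated lamin of proliferating cells as well as resting ones. Lmna mutations cause Emery-Dreifuss muscular dystrophy, and DES mutations cause desminopathy.

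Upstream sequence is shown for Des, Nes and Sync, the 3 genes with their highest mean in differentiated control cells, whose start regions are also clear of annotated exons. The bases come from a set of RefSeq promoter windows (GRCm38.p6) that held entries for 6 of the 8 genes. The Des window runs up to the RefSeq start of transcription. Capitals mark CAGCTG, an E-box that myogenic bHLH factors such as MyoD can bind.
Des, chr1:75360042-75360291, plus strand: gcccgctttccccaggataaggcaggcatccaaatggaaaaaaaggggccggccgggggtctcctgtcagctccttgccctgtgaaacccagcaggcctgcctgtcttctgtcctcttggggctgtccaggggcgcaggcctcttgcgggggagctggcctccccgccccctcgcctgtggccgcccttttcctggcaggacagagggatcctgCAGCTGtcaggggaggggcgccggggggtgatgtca
Nes, chr3:87970843-87971077, plus strand: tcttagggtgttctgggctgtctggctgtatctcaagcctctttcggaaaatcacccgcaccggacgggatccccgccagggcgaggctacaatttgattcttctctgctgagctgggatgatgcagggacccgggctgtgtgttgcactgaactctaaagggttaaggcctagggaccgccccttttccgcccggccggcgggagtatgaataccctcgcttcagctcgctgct
Sync, chr4:129287371-129287616, plus strand: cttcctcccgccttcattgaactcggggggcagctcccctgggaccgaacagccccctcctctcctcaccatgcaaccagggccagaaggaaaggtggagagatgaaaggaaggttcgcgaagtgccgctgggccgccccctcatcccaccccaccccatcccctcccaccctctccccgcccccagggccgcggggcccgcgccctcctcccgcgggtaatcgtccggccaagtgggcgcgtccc
The windows of Nes and Sync stop 15 and 4 bases short of the RefSeq start, where an annotated exon begins. In the Des window, 1 CAGCTG was found with its first base 36 bases upstream of the start, and 13% of all 32851 promoter windows of 250 bases hold that motif. None of the 6 motifs searched, on both strands, was found in the windows of Nes and Sync. The other 5 motifs were CACGTG, which 6.02% of all windows hold, the CCAAT box (33.8%), the TATA box written TATAAA (12.4%), the CArG box (1.47%) and the MEF2 site (2.92%).

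Expression is given in FPKM, fragments per kilobase of exon scaled to the size of the library, so levels of different genes can be compared. Reads on genes ranged from 14174079 to 18823229 per library in muscle and from 14230094 to 29567085 in cells, as recovered from the values. The fewest reads behind any value were 98 in muscle, for Lmnb1 in a day 0 library, and 17 in cells, for Synm in Ctrl GM replicate 2. In every cell group replicate 2 was the shallower library and the one with more reads on 3 ribosomal RNA loci, at 8.22% to 28.74% (the highest in Ctrl GM) against 0.41% to 0.54% in the replicate 1 libraries. In muscle the female transcript Xist read 5.77 to 10.0 FPKM in 5 libraries, which were both of day 0, both of day 10 and day 3 replicate 2, and 0.017 to 0.152 FPKM in the other 5 although the methods name males. Xist level and time therefore cannot be told apart in comparisons of day 1 or day 5 with day 0 or day 10. Where a fit with an Xist term ends a call of a member, its log2 fold change is given. Only day 3 held libraries of both kinds, so that term rests on the difference between the 2 day 3 libraries. Against day 0 or 10, its day 3 estimates equal those without day 3 replicate 1. Against day 1 or 5, they equal those without day 3 replicate 2. For day 1 or 5 against day 0 or 10, the term adds or subtracts that 1 difference. Mettl3, the m6A methyltransferase targeted in the cells, read 4.70 and 5.65 FPKM in Ctrl GM, 4.68 and 5.15 in Ctrl DM3, 0.331 and 0.118 in Cas9M3 GM and 0.148 and 0.080 in Cas9M3 DM3. Its level was thus lower in every knockdown library than in any control library.

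In regenerating muscle, 5 of the 8 genes were called on day 3 against day 0, 4 higher and 1 lower, where 24.5% of all genes were called higher and 24.3% lower. Vim, Nes, Lmna and Lmnb1 rose and Synm fell between day 0 and day 3, and all 5 were called in the opposite direction from day 3 to day 10. Des stayed the most abundant of the 8 throughout, at 469 to 1346 FPKM.

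**Figure D1:**
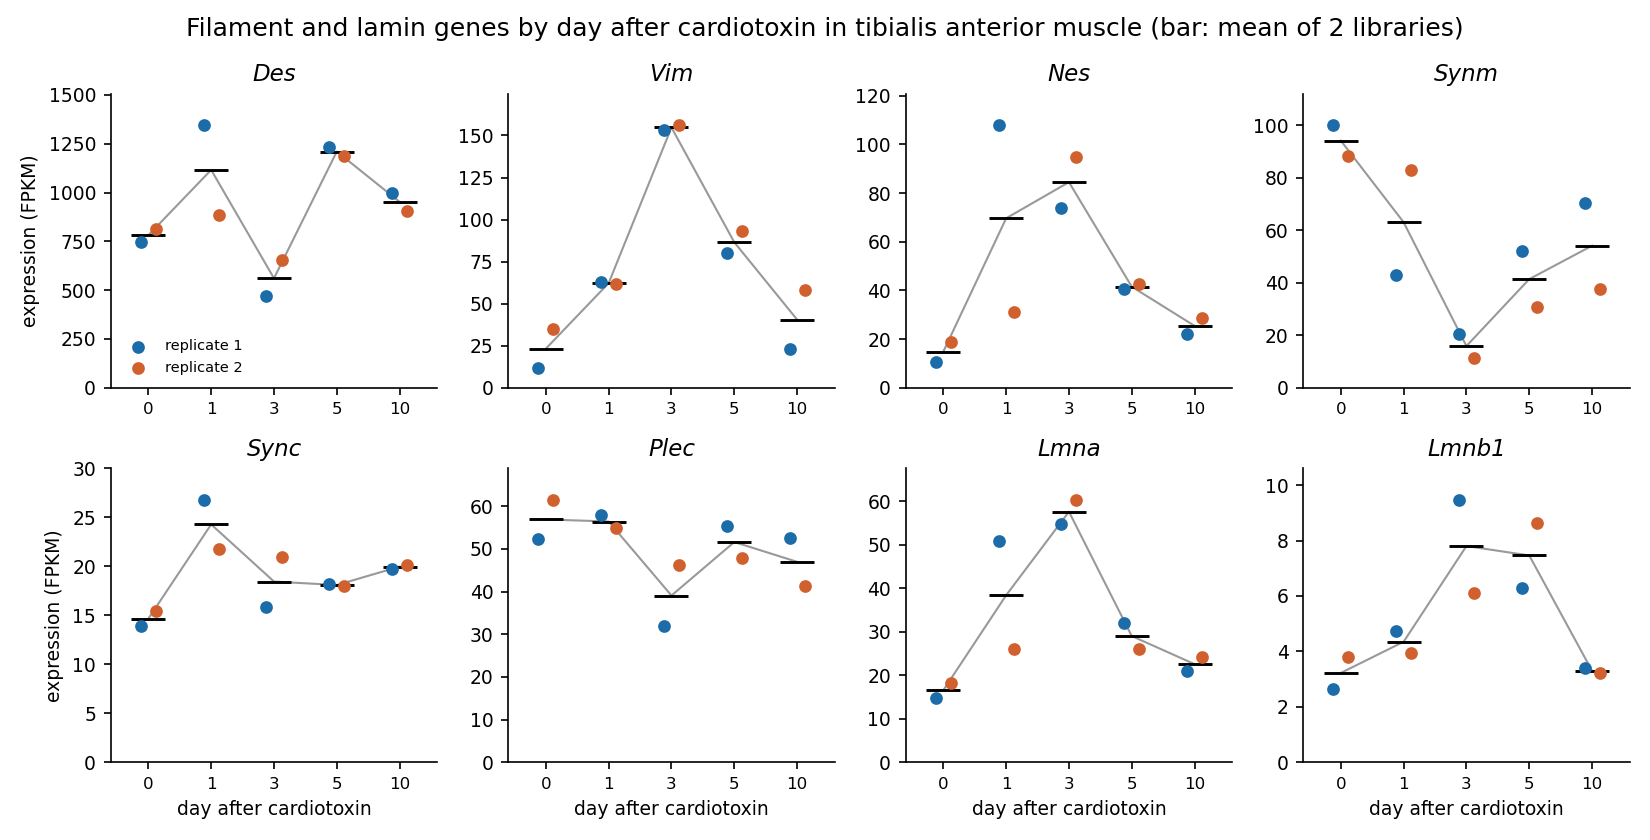
Expression of the 8 genes in TA muscle on days 0, 1, 3, 5 and 10 after cardiotoxin, in FPKM on a linear axis from 0. Points are single libraries, coloured by replicate number, bars are the means of 2 libraries and grey lines join the means. Vim, Nes, Lmna and Lmnb1 have their highest mean on day 3 and Synm its lowest.

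Vim, the mesenchymal filament subunit, read 11.5 and 35.0 FPKM on day 0, 62.9 and 61.5 on day 1, 153 and 156 on day 3, 79.9 and 93.0 on day 5 and then 23.0 and 58.0 on day 10. The day 3 libraries were above all others, and day 10 overlapped day 0. The day 3 mean was 6.66 times that of day 0, a log2 fold change of 2.94 (SE 0.54, adjusted p = 0.00369), which was 2.14 without day 0 replicate 1 and 3.74 without day 0 replicate 2, both called. These adjusted p-values come from limma on log2(FPKM + 0.1) with Benjamini-Hochberg adjustment over all 16753 genes tested in muscle, and a gene is called at 0.05 or below. Vim was also called higher on day 5 than on day 0 (log2 fold change 2.10, SE 0.54, adjusted p = 0.0308) and lower on day 10 than on day 3 (-2.08, SE 0.54, adjusted p = 0.0204). With the Xist term these were 2.13 (adjusted p = 0.309) and -2.09 (0.0849), of the same size but not called. The day 0 libraries differed in other respects too: replicate 2, with more Vim, also had the higher sums of fibroblast markers (168 against 56.9 FPKM) and macrophage markers (96.5 against 46.8 FPKM), and the part of these cells in its Vim level was not tested.

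Nes, which builds mixed filaments with vimentin or desmin, read 10.8 and 18.9 FPKM on day 0, 108 and 31.3 on day 1, 74.0 and 95.0 on day 3, 40.4 and 42.7 on day 5 and then 22.3 and 28.6 on day 10. Its 2 day 1 libraries stood far apart, and their range took in the day 3 and day 5 values. Day 3 was called higher than day 0 (log2 fold change 2.55, SE 0.53, adjusted p = 0.0059) and day 10 lower than day 3 (-1.73, SE 0.53, adjusted p = 0.0355, and -1.91, adjusted p = 0.0945 with the Xist term). Day 1 against day 0 was not called (2.02, SE 0.53, adjusted p = 0.0636), but was without day 1 replicate 2 (2.91, adjusted p = 0.0126), as was Lmna (1.62, adjusted p = 0.0137).

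Synm, the large partner of desmin at costameres, had the opposite course. It read 100 and 88.2 FPKM on day 0, 43.1 and 83.0 on day 1, 20.5 and 11.2 on day 3, 52.1 and 30.7 on day 5 and then 70.5 and 37.6 on day 10. Both day 3 libraries were below all others, and the day 0 libraries were above all others. The day 3 mean was 0.169 times that of day 0 (log2 fold change -2.62, SE 0.46, adjusted p = 0.00292). Synm was also called lower on day 3 than on day 1 (-1.97, SE 0.46, adjusted p = 0.0168) and higher on day 10 than on day 3 (1.76, SE 0.46, adjusted p = 0.0203). The call against day 1 was lost without day 1 replicate 2 and without day 3 replicate 2. The Xist term gave the same log2 fold change as the latter, -1.54, and is not a separate loss.

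Des read 748 and 815 FPKM on day 0, 1346 and 886 on day 1, 469 and 652 on day 3, 1234 and 1186 on day 5 and then 996 and 908 on day 10. Day 3 was the lowest group, without overlap with any other. Against day 0 its log2 fold change was -0.50 (SE 0.25, adjusted p = 0.134), which was not called. Des was called lower on day 3 than on day 1 (-0.98, SE 0.25, adjusted p = 0.0221), higher on day 5 than on day 3 (1.13, SE 0.25, adjusted p = 0.0274) and higher on day 10 than on day 3 (0.78, SE 0.25, adjusted p = 0.0404). These 3 calls were fragile: that against day 1 was lost without day 1 replicate 1 or either day 3 library (adjusted p = 0.0527 to 0.121), and those of day 5 and day 10 against day 3 without any 1 of their 4 libraries (0.0782 to 0.141 and 0.0514 to 0.209). With the Xist term the log2 fold changes were -1.22 for day 3 against day 1, 1.37 for day 5 against day 3 and 0.54 for day 10 against day 3. Each equals the estimate without 1 of the day 3 libraries, so these are not separate losses. The direction of the day 3 values depended on the scaling as well. With quantile normalization day 3 against day 0 became 0.78 (adjusted p = 0.0517), day 3 against day 1 became 0.003 and day 10 against day 3 became -0.34. With scaling to total reads on genes, an alternative chosen after the data were seen, day 3 against day 0 became 0.34, in a fit where the median over all genes moved from 0.01 to 0.79.

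Sync, a desmin and dystrobrevin binding filament protein, read 13.9 and 15.4 FPKM on day 0, 26.8 and 21.8 on day 1, 15.9 and 21 on day 3, 18.2 and 18 on day 5 and then 19.8 and 20.2 on day 10. All later libraries were above both day 0 libraries, and day 1 was the highest group. It was the only 1 of the 8 called on day 1 against day 0 (log2 fold change 0.72, SE 0.17, adjusted p = 0.0495), and that call was lost without any 1 of the libraries day 0 replicate 1 (adjusted p = 0.235), day 0 replicate 2 (0.0977) or day 1 replicate 1 (0.196), and with the Xist term (log2 fold change 1.118, adjusted p = 0.396).

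Plec read 52.3 and 61.6 FPKM on day 0, 57.9 and 55.0 on day 1, 32.0 and 46.2 on day 3, 55.3 and 47.9 on day 5 and then 52.6 and 41.4 on day 10. All days overlapped their neighbours in the order of levels, and no comparison of it was called. Day 3 against day 0 gave a log2 fold change of -0.56 (SE 0.21, adjusted p = 0.0562), which scaling to total reads turned to 0.27.

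Both lamin genes were higher on day 3. Lmna read 14.9 and 18.2 FPKM on day 0, 50.8 and 25.9 on day 1, 54.8 and 60.3 on day 3, 32.1 and 26 on day 5 and then 20.9 and 24.2 on day 10. Day 3 was called higher than day 0 (log2 fold change 1.80, SE 0.29, adjusted p = 0.00223) and day 10 lower than day 3 (-1.35, SE 0.29, adjusted p = 0.01). Lmnb1 read 2.66 and 3.79 FPKM on day 0, 4.74 and 3.96 on day 1, 9.48 and 6.12 on day 3, 6.28 and 8.65 on day 5 and then 3.39 and 3.21 on day 10. Days 3 and 5 overlapped each other and lay above the rest, and day 10 overlapped day 0. Lmnb1 was called higher on day 3 (1.24, SE 0.27, adjusted p = 0.00728) and on day 5 (1.19, SE 0.27, adjusted p = 0.0214) than on day 0, and lower on day 10 than on day 3 (-1.18, SE 0.27, adjusted p = 0.0117). With the Xist term the last 2 were 0.57 (adjusted p = 0.466) and -0.87 (0.0744), not called.

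By group mean, the order of days was 3, 5, 1, 10, 0 for Vim, 3, 1, 5, 10, 0 for Nes and Lmna, 3, 5, 1, 10, 0 for Lmnb1, and 0, 1, 10, 5, 3 for Synm. Neighbours in that order whose libraries overlapped were days 10 and 0 for Vim, days 3 and 1 and days 1 and 5 for Nes, days 1 and 5 for Lmna, days 3 and 5 and days 10 and 0 for Lmnb1, and days 1 and 10 and days 10 and 5 for Synm. For Des the order was 5, 1, 10, 0, 3, with overlap between days 5 and 1 and days 1 and 10, and for Sync it was 1, 10, 3, 5, 0, with overlap between days 10 and 3 and days 3 and 5. For Plec it was 0, 1, 5, 10, 3, and every pair of neighbours overlapped.

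Many genes were called in injured muscle, and the counts for the 8 are given beside that background. On day 3 against day 0, with 4 called higher (24.5% of all genes) and 1 lower (24.3%), the median of the 8 log2 fold changes was 0.78 against 0.01 over all genes. On day 10 against day 3, 2 were called higher (19.1% of all genes) and 4 lower (18.8%), with a median of -0.53 against -0.01. On day 1 against day 0, 1 was called higher (3.53%) and 0 lower (2.47%), and on day 5 against day 0, 2 were called higher (12.9%) and 0 lower (12.5%). On day 3 against day 1, 0 were called higher (14.5%) and 2 lower (16.6%), and on day 5 against day 3, 1 was called higher (7.23%) and 0 lower (5.46%). On day 10 against day 0, 0 of 8 were called, where 0.00597% of all genes were called higher and 0.0% lower by limma and 1697 genes had an unadjusted p under 0.05. On day 10 against day 5, 0 of 8 were called, where 0.119% of all genes were called higher and 0.161% lower by limma and 4143 genes had an unadjusted p under 0.05. These comparisons share libraries, so their calls are not independent of each other. The split between higher and lower calls rested on the scaling: to total reads, day 3 against day 0 gave 8776 higher and 1462 lower in place of 4104 and 4075, day 5 against day 0 gave 3592 and 769 in place of 2169 and 2098, day 1 against day 0 gave 729 and 102 in place of 591 and 414, day 3 against day 1 gave 5856 and 907 in place of 2435 and 2778, day 5 against day 3 gave 603 and 3628 in place of 1212 and 914 and day 10 against day 3 gave 1210 and 7887 in place of 3203 and 3143. Relative to the shift of 0.79 in all genes on day 3, Vim (3.77), Nes (3.38), Lmna (2.63) and Lmnb1 (2.05) remained above it and Synm (-1.79) below it, all 5 called under that scaling too.

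Of the 5 genes called on day 3 against day 0, Vim, Nes, Synm and Lmna stayed called with any of the 4 libraries left out. Lmnb1 missed the threshold without day 0 replicate 1 (log2 fold change 0.99, adjusted p = 0.0522). With Xist expression as a term of the fit, the log2 fold changes were 2.96 for Vim, 2.73 for Nes, 1.87 for Lmna, 0.93 for Lmnb1 and -3.06 for Synm. These equal the values without day 3 replicate 1, so they are not a separate check. For the 6 calls on day 10 against day 3, leaving out 1 library changed no sign. The log2 fold changes ran from 0.544 to 1.02 for Des, -2.75 to -1.41 for Vim and -1.91 to -1.55 for Nes. For Synm they ran from 1.3 to 2.21, for Lmna from -1.46 to -1.25 and for Lmnb1 from -1.5 to -0.873. Some of these 6 calls were lost in each such fit, and losses over all genes are not given here. The 2 calls on day 5 against day 0 were lost in most such fits, with log2 fold changes of 1.3 to 2.9 for Vim and 0.94 to 1.44 for Lmnb1.

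**Figure D2:**
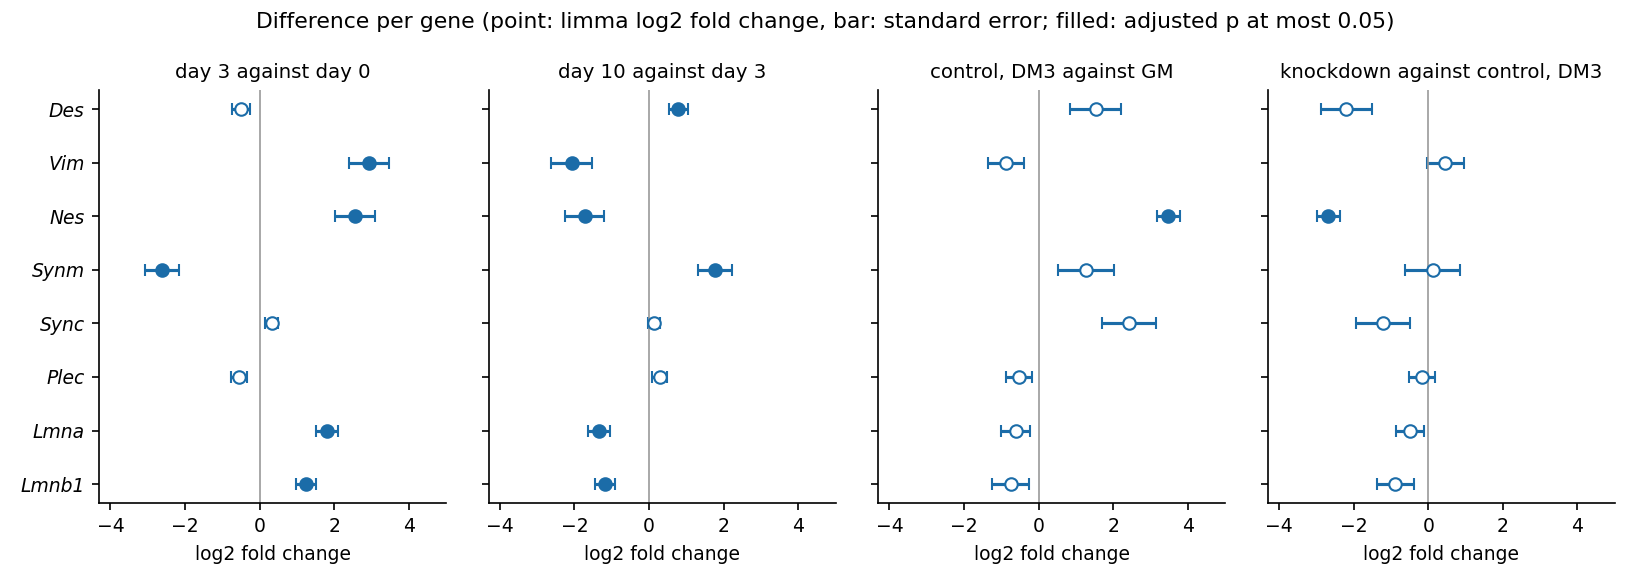
Log2 fold change of each gene in 4 comparisons, with the limma standard error as bars; filled points have an adjusted p of 0.05 or below. On day 3 against day 0 Vim, Nes, Lmna and Lmnb1 lie to the right of 0 and Synm to the left, on day 10 against day 3 the same 5 lie on the opposite side, and Des is filled as well; in cells Nes alone is filled.

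The make-up of the cytoplasmic filament transcripts differed on day 3. Of the summed FPKM of Des, Vim, Nes, Synm and Sync, Des held 84.6% and 83.8% on day 0, 64.0% and 69.7% on day 3 and then 88.0% and 86.3% on day 10. Vim held 1.3% and 3.6% on day 0, 20.9% and 16.7% on day 3 and then 2.03% and 5.51% on day 10. Nes went from 1.22% and 1.94% on day 0 to 10.1% and 10.2% on day 3, and Synm from 11.3% and 9.07% to 2.8% and 1.2%. Day 3 thus did not overlap day 0 for any of these 4 shares, and such shares are the same under any scaling of a library by 1 factor.

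The Des to Vim ratio was 65.2 and 23.3 on day 0, 21.4 and 14.4 on day 1, 3.06 and 4.17 on day 3, 15.4 and 12.8 on day 5 and then 43.3 and 15.6 on day 10. On the log2 scale the group means were 5.28 ± 1.05 (SD, n = 2) on day 0, 1.84 ± 0.32 on day 3 and 4.70 ± 1.04 on day 10. With 2 libraries a group an exact permutation test cannot go below 0.33, so no test is given. The Lmna to Lmnb1 ratio was 5.6 and 4.81 on day 0, 10.7 and 6.56 on day 1, 5.78 and 9.85 on day 3, 5.11 and 3 on day 5 and then 6.16 and 7.55 on day 10. Day 5 held the lowest value and day 1 the highest, and day 3 overlapped day 1 and day 10.

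**Figure D3:**
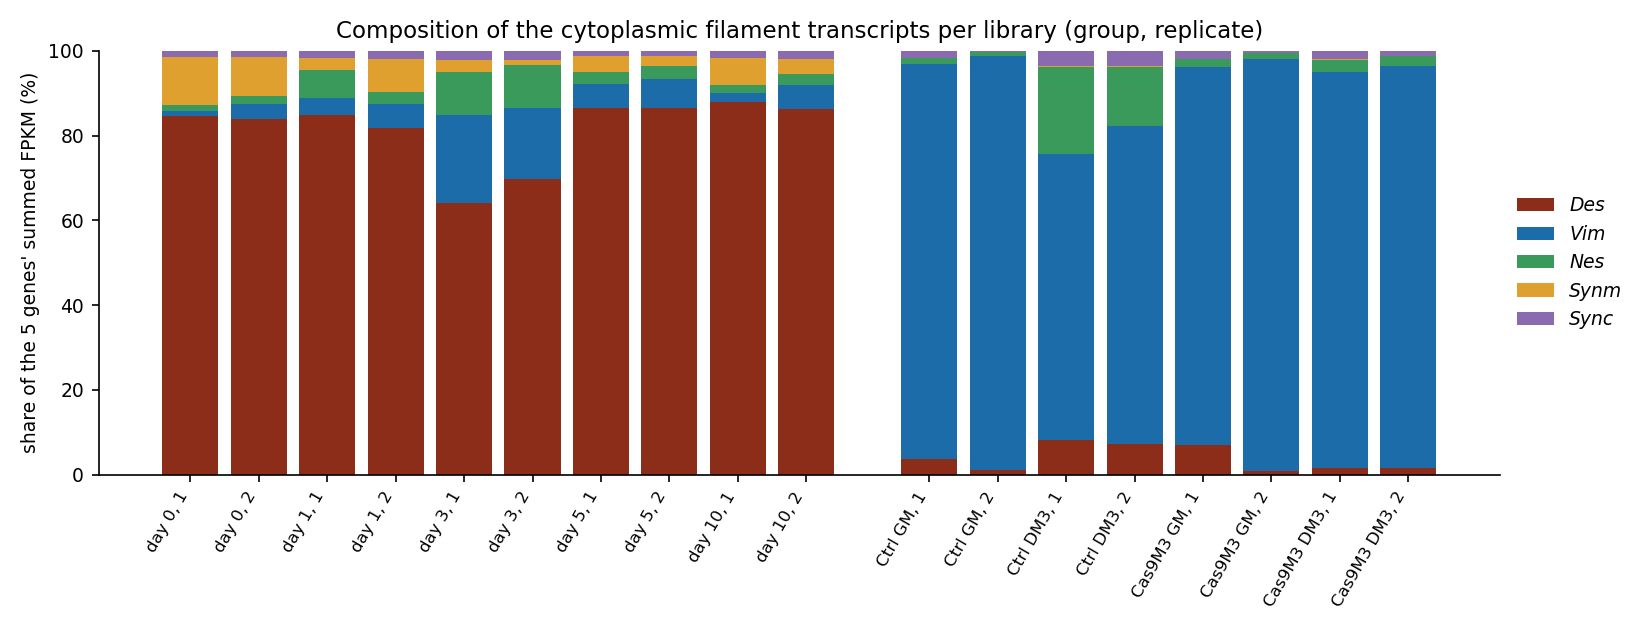
Share of Des, Vim, Nes, Synm and Sync in their summed FPKM, in percent, as 1 stacked bar per library labelled by group and replicate number. Des fills most of every muscle bar, with its smallest share on day 3, and Vim fills most of every cell bar, with its smallest share, 67.6% and 75.0%, in Ctrl DM3.

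Most cell type marker sums also differed between day 0 and day 3, though not all followed the course of the members over the other days. The summed FPKM of 7 muscle fibre markers was 39900 to 43200 on day 0, 10100 to 12500 on day 3 and 39600 to 53100 on day 10, with all 7 at 0.5 FPKM or more on each of these days. The sum of 7 myoblast and new fibre markers was 40.0 to 54.4 on day 0 and 926 to 1430 on day 3. For 7 macrophage markers it was 46.8 to 96.5 on day 0 and 1570 to 1610 on day 3, and for 5 fibroblast markers 56.9 to 168 and 637 to 717. The macrophage sum was 322 to 390 on day 1 and 460 to 525 on day 5. The fibroblast sum was 46.8 to 143 on day 1, which overlapped day 0, and was highest on day 5, at 792 to 890. For 4 smooth muscle and pericyte markers the sum was 89.8 to 95.7 on day 0 and 347 to 424 on day 3, and for 5 markers of dividing cells it was 0.317 to 2.68 and 10.0 to 22.1. Neutrophil markers (4 genes) summed to 1.58 to 5.11 on day 0 and 7.17 to 8.13 on day 3, endothelial markers (5 genes) to 53.4 to 73.1 and 30.8 to 39.5, and Schwann cell markers (4 genes) to 11.2 to 17.0 and 2.79 to 11.8. On day 3 all genes of the fibre, myoblast, macrophage, fibroblast and endothelial lists reached 0.5 FPKM in both libraries, and no listed gene was at 0 in both. On day 0 the neutrophil receptor Cxcr2 was at 0. In bulk tissue fewer cells of a type and less RNA per cell cannot be told apart, and the part of cell composition in the changes of the 8 genes was not tested.

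**Figure D4:**
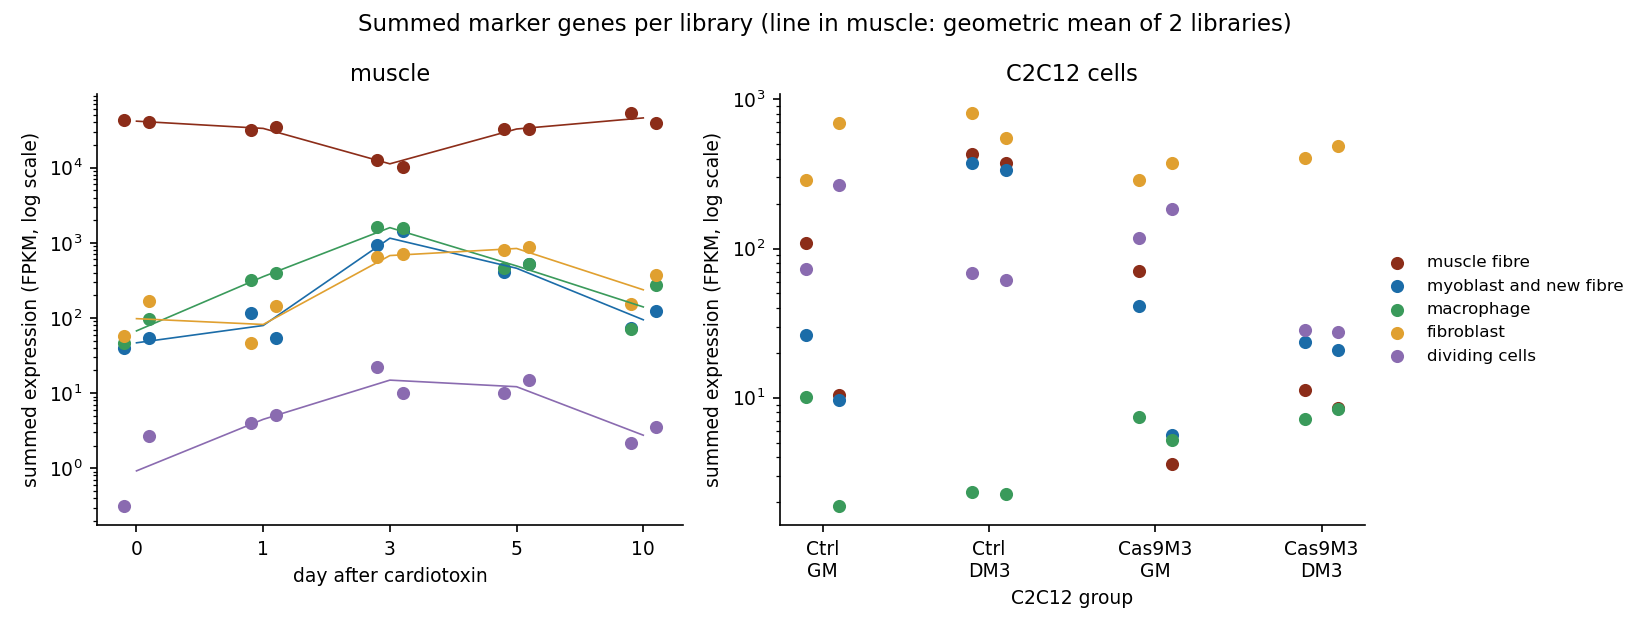
Summed FPKM of 5 marker lists per library on a log axis, in muscle by day (left) and in C2C12 cells by group (right). In muscle the myoblast, macrophage, fibroblast and dividing cell sums are above day 0 on days 3 and 5 and the muscle fibre sum is lowest on day 3; in cells the myoblast and new fibre sum is 337 to 376 in Ctrl DM3 and 20.9 to 23.7 in Cas9M3 DM3.

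Other genes of the system were followed through 5 lists. On day 3 against day 0, 2 of 5 tested genes among 12 other intermediate filaments were called higher and 0 lower. Lmnb2, the second B-type lamin, read 0.974 and 1.92 FPKM on day 0 and 10.3 and 10.8 on day 3 (log2 fold change 2.85, SE 0.29, adjusted p = 4.3e-04). Bfsp2, a beaded filament protein known from the lens, read 0.189 and 0.176 on day 0 and 0.776 and 1.14 on day 3 (1.88, SE 0.55, adjusted p = 0.0249), a call lost with quantile normalization (adjusted p = 0.0771) and with the Xist term (2.13, adjusted p = 0.0546).

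Of 16 nuclear envelope partners of lamins, 4 were higher and 6 lower by the call rule at day 3 against day 0, beside 24.5% and 24.3% of all genes, and the median log2 fold change was -0.35. With scaling to total reads all 4 stayed higher but only 2 of the 6 lower, Tmem38a and Sun2, and with the Xist term 1 and 3 stayed. Nrm, the inner membrane protein nurim, was called higher (1.74, SE 0.39, adjusted p = 0.00819, and an adjusted p of 0.0572 with the Xist term). Tmem38a, a cation channel of the sarcoplasmic reticulum and nuclear envelope, was called lower (-1.75, SE 0.21, adjusted p = 6.5e-04). Of 12 desmin partners and chaperones, 6 were called lower and 0 higher on day 3, with a median of -0.73 against 0.01 over all genes. Of the 6, 3 stayed lower with scaling to total reads (Cmya5, Trim54 and Dmd) and 5 with the Xist term. The largest changes were those of Cmya5 (myospryn, -2.58, SE 0.37, adjusted p = 0.00127) and Trim54 (MURF3, a ubiquitin ligase of the sarcomere, -1.80, SE 0.28, adjusted p = 0.00169). Among plakins and desmosomal linkers, 1 of 3 tested genes was called higher, Macf1 (1.55, SE 0.23, adjusted p = 0.00142), and 2 were called lower, with Dst the larger (-1.32, SE 0.28, adjusted p = 0.00653). Neither stayed called with scaling to total reads, where Dst was -0.50 (adjusted p = 0.115) and Jup -0.30 (0.317). Of 5 lamin processing enzymes, 1 was called lower, Icmt (-0.58, SE 0.13, adjusted p = 0.00728), which turned to 0.24 with scaling to total reads.

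On day 1 against day 0, 3 of 12 desmin partners and chaperones were called higher and 0 lower, beside 3.53% and 2.47% of all genes, and the median of the list was -0.16. The 3 were the small heat shock proteins Cryab (alpha-B crystallin, log2 fold change 1.97, SE 0.45, adjusted p = 0.0466), Hspb1 (1.86, SE 0.38, adjusted p = 0.0373) and Hspb8, and Cryab went from 444 and 456 FPKM to 2680 and 1150. Of the nuclear envelope list, 1 gene was called higher on day 1, Tmem43 (1.49, SE 0.22, adjusted p = 0.0221). All 4 calls were lost with the Xist term, where the log2 fold changes were 2.39 for Cryab (adjusted p = 0.42), 2.82 for Hspb1 (0.396), 1.90 for Hspb8 (0.435) and 1.38 for Tmem43 (0.401), and in the fit of only these 2 days. Neither of those fits called any of the 16753 genes, so the losses are not particular to these 4. In this comparison the Xist term only adds the difference between the 2 day 3 libraries to each log2 fold change.

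On day 3 against day 1 the desmin list had 8 called lower and 0 higher, beside 16.6% and 14.5% of all genes, led by Cryab (-2.40, SE 0.45, adjusted p = 0.00809) and Trim54 (-1.80, SE 0.28, adjusted p = 0.00462). Of the 8, 3 stayed called with scaling to total reads (Cryab, Trim54 and Cmya5) and 4 with the Xist term. On day 10 against day 3 the desmin list had 6 called higher and 0 lower, led by Cmya5 (1.99, SE 0.37, adjusted p = 0.00537) and Dmd (dystrophin, 1.61, SE 0.22, adjusted p = 0.00164), which alone of the 6 stayed called with scaling to total reads. The nuclear envelope list had 4 higher and 4 lower there, led by Tmem38a (1.71, SE 0.21, adjusted p = 0.00112) and Nrm (-1.23, SE 0.39, adjusted p = 0.041), beside 19.1% and 18.8% of all genes. On day 10 against day 0, 0 genes of the 5 lists were called by limma.

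Genes whose course over the 10 muscle libraries was closest to that of a member were ranked by the root mean square distance of centred log2 profiles over 12285 genes. Closest to Vim were Lhfpl2 (0.208), Sec24d (0.219) and Gm13456 (0.233), where Vim itself varied by 1.11 around its mean. Closest to Nes were Arfgap3 (0.215), Slc7a5 (0.264) and Anxa4 (0.274), with 1.00 for Nes itself. Closest to Synm were Phka1 (0.154), Abcb4 (0.185) and Pde4dip (0.201), with 0.955 for Synm itself. Closest to Lmna was Nup93 (0.159), to Lmnb1 Cdca4 (0.181), to Des Fhod1 (0.168), to Sync Anxa6 (0.108) and to Plec Gm44560 (0.095). Profiles share libraries and their scaling, and closeness is a description only.

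In C2C12 cells the order of levels was another: Vim was the most abundant of the 8 in every library, at 541 to 1566 FPKM, and Synm the least, at 0.222 to 2.05. Nes was the only member called in any cell comparison. It was called higher in differentiated control cells and called lower in differentiated knockdown cells than in differentiated controls.

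**Figure D5:**
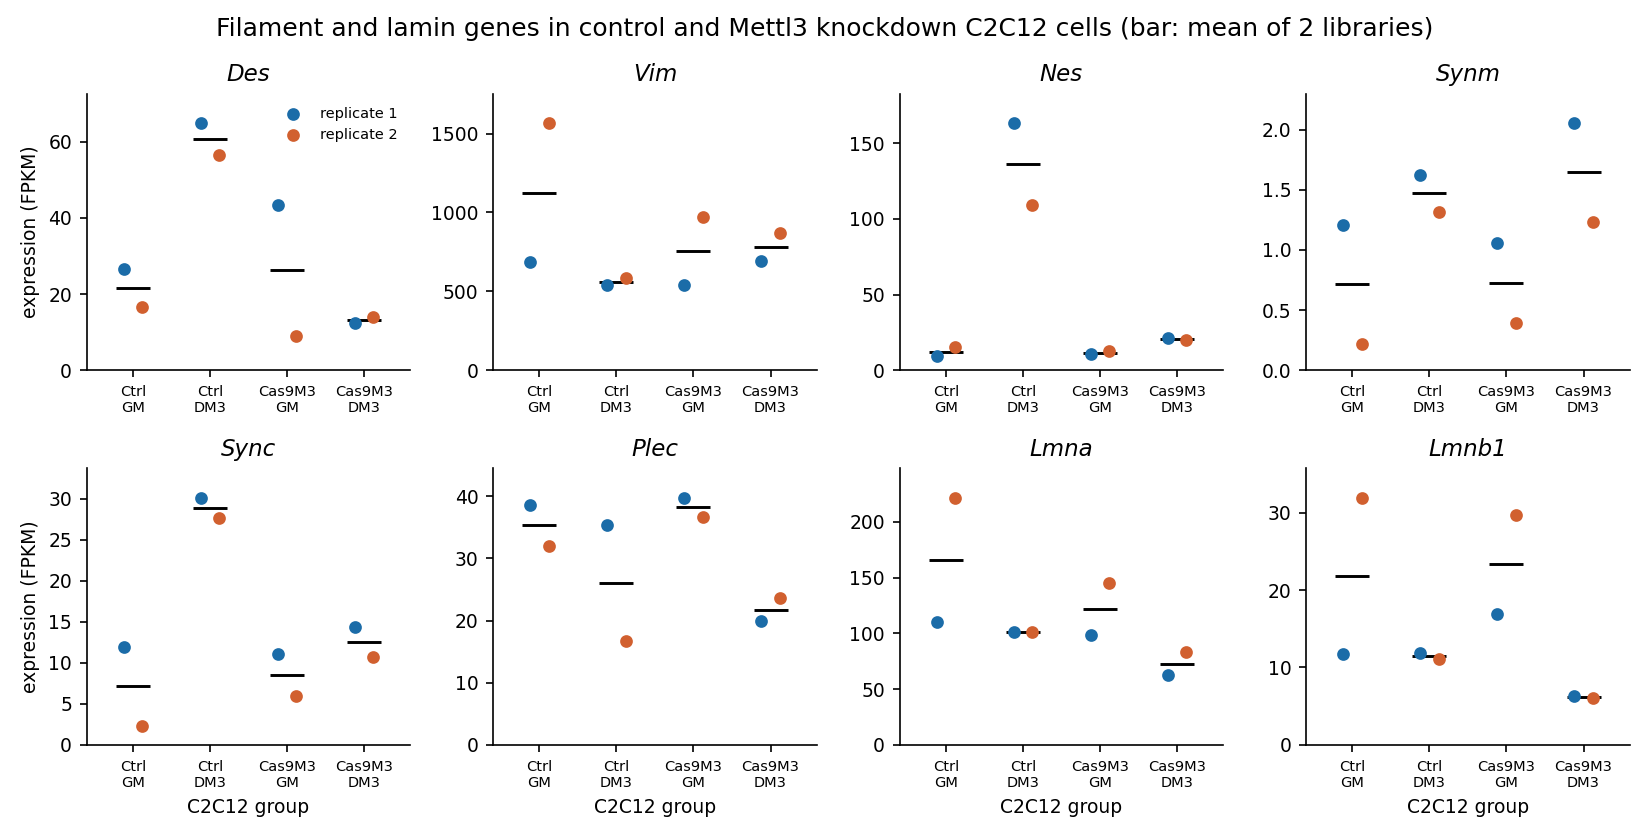
Expression of the 8 genes in Ctrl and Cas9M3 C2C12 cells in GM and on day 3 in DM, in FPKM on a linear axis from 0; points are single libraries coloured by replicate number and bars the means of 2 libraries. Nes, Des and Sync have their highest mean in Ctrl DM3, and Nes reads 163 and 109 FPKM there.

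Nes read 9.30 and 15.4 FPKM in Ctrl GM, 163 and 109 in Ctrl DM3, 10.7 and 12.6 in Cas9M3 GM and 21.6 and 19.9 in Cas9M3 DM3. Both Ctrl DM3 libraries were far above all others, and the Cas9M3 DM3 libraries lay above every GM library. The mean of Ctrl DM3 was 11 times that of Ctrl GM (log2 fold change 3.47, SE 0.31, adjusted p = 0.0206 over 13824 genes tested), and the call was kept without Ctrl GM replicate 2, the library rich in ribosomal RNA (3.83, adjusted p = 0.0123). It was lost without either Ctrl DM3 library (3.18, adjusted p = 0.294 without replicate 1 and 3.76, adjusted p = 0.202 without replicate 2). In DM3 the log2 fold change of knockdown against control was -2.68 (SE 0.31, adjusted p = 0.0227), and that call was lost without any 1 of the 4 libraries, where the log2 fold change was -2.97 to -2.39 and the adjusted p 0.207 to 0.281. The difference between the knockdown effects in DM3 and GM was -2.64 (SE 0.43), with an adjusted p of 0.266 and an unadjusted p of 7.2e-04.

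Des, which marks committed myoblasts and myotubes, read 26.6 and 16.5 FPKM in Ctrl GM, 64.8 and 56.6 in Ctrl DM3, 43.3 and 9.11 in Cas9M3 GM and 12.5 and 13.9 in Cas9M3 DM3. The Ctrl DM3 libraries were the highest, and the 2 Cas9M3 GM libraries stood 4.75 times apart. Neither control DM3 against GM (log2 fold change 1.53, SE 0.68, adjusted p = 0.293) nor knockdown against control in DM3 (-2.19, SE 0.68, adjusted p = 0.164) was called. Sync read 11.9 and 2.32 FPKM in Ctrl GM, 30.1 and 27.6 in Ctrl DM3, 11.1 and 5.94 in Cas9M3 GM and 14.4 and 10.7 in Cas9M3 DM3. Its Ctrl DM3 libraries too were above all others, with log2 fold changes of 2.42 (SE 0.72, adjusted p = 0.179) over Ctrl GM and of -1.21 (SE 0.72, adjusted p = 0.485) for knockdown against control in DM3.

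Vim read 686 and 1566 FPKM in Ctrl GM, 541 and 583 in Ctrl DM3, 543 and 973 in Cas9M3 GM and 691 and 869 in Cas9M3 DM3. Its highest value was in Ctrl GM replicate 2, and without that library control DM3 against GM went from a log2 fold change of -0.88 to -0.29. Synm read 1.21 and 0.222 in Ctrl GM, 1.62 and 1.32 in Ctrl DM3, 1.05 and 0.391 in Cas9M3 GM and 2.05 and 1.24 in Cas9M3 DM3. Both DM3 groups were above both GM groups. Plec read 38.6 and 32.0 in Ctrl GM, 35.3 and 16.7 in Ctrl DM3, 39.8 and 36.7 in Cas9M3 GM and 19.9 and 23.6 in Cas9M3 DM3, and all neighbouring groups overlapped. None of these differences was called.

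Lmna read 110 and 222 FPKM in Ctrl GM, 102 and 101 in Ctrl DM3, 98.1 and 145 in Cas9M3 GM and 62.8 and 83.1 in Cas9M3 DM3. Lmnb1 read 11.7 and 31.9 in Ctrl GM, 11.9 and 11.1 in Ctrl DM3, 16.9 and 29.7 in Cas9M3 GM and 6.33 and 6 in Cas9M3 DM3. For both lamins the Cas9M3 DM3 libraries were the lowest of the 8, below every other library, without a called difference. Against Ctrl DM3 the log2 fold changes were -0.49 (SE 0.38, adjusted p = 0.614) for Lmna and -0.88 (SE 0.49, adjusted p = 0.438) for Lmnb1. The Lmna to Lmnb1 ratio was 9.36 and 6.94 in Ctrl GM, 8.56 and 9.16 in Ctrl DM3, 5.79 and 4.89 in Cas9M3 GM and 9.92 and 13.9 in Cas9M3 DM3, so that the knockdown libraries lay below the controls in GM and above them in DM3.

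In control DM3 against GM, 1 of 8 was called higher (0.767% of all genes) and 0 lower (0.376%). With the replicate number as a block, 411 of all genes were called in place of 158, and Nes stayed the 1 member called. In knockdown DM3 against GM, 0 of 8 were called, where 0.0145% of all genes were called higher and 0.0145% lower by limma, 9 in place of 4 genes were called with the block, and 1748 had an unadjusted p under 0.05. In knockdown against control in GM, 0 of 8 were called, where 0.0% of all genes were called higher and 0.0% lower by limma and 1244 had an unadjusted p under 0.05. Mettl3 itself was not called there (log2 fold change -4.10, SE 0.40, adjusted p = 0.188). In DM3, where Mettl3 was called (-4.56, SE 0.40, adjusted p = 0.0187), 0 of 8 were called higher (1.29% of all genes) and 1 lower (0.687%), and the block gave 505 in place of 274 genes. For the difference of the knockdown effects between DM3 and GM, 0 of 8 were called, with 0.0% of all genes called higher and 0.0% lower by limma and 1198 at an unadjusted p under 0.05.

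The estimate of the spread, shared over all 8 libraries, bore on these counts. Fitted on the 4 DM3 libraries alone, knockdown against control called 2637 of 13824 genes, 1407 higher and 1230 lower. Of the 8 it called 4, all lower: Nes (adjusted p = 0.00599), Des (0.00287), Lmnb1 (0.0123) and Sync (0.0174). Fitted on its own 4 libraries, control DM3 against GM called 0 genes by limma, and Nes then had an adjusted p of 0.202.

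In filament make-up, Vim held 93.3% and 97.8% of the summed FPKM of the 5 cytoplasmic genes in Ctrl GM, 67.6% and 75.0% in Ctrl DM3, 89.1% and 97.2% in Cas9M3 GM and 93.2% and 95.0% in Cas9M3 DM3. Nes held 20.4% and 14.0% in Ctrl DM3 and 0.964% to 2.92% in the other 6 libraries. The Vim to Des ratio was 25.8 and 94.9 in Ctrl GM, 8.35 and 10.3 in Ctrl DM3, 12.6 and 107 in Cas9M3 GM and 55.3 and 62.4 in Cas9M3 DM3. Ctrl DM3 was thus the group with the most Des relative to Vim, and the GM groups were too wide to be set apart from each other. The muscle and cell tables were scaled separately, and no level was tested between them.

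Muscle differentiation markers stood beside these values. The sum of 7 myoblast and new fibre markers was 9.73 to 26.3 FPKM in Ctrl GM, 337 to 376 in Ctrl DM3, 5.62 to 41.3 in Cas9M3 GM and 20.9 to 23.7 in Cas9M3 DM3, and that of 7 muscle fibre markers was 10.4 to 109, 373 to 428, 3.61 to 70.7 and 8.51 to 11.3. Myog (myogenin) read 89.1 and 83.3 FPKM in Ctrl DM3 and 3.50 and 2.28 in Cas9M3 DM3. The 5 markers of dividing cells summed to 72.5 to 266 in Ctrl GM, 62.0 to 69.0 in Ctrl DM3, 118 to 183 in Cas9M3 GM and 27.4 to 28.4 in Cas9M3 DM3. Of 7 macrophage markers, Adgre1, Itgam, C1qa and C1qb were at 0 in all 8 libraries, and endothelial, Schwann cell and neutrophil lists summed to at most 0.222, 0.56 and 0.363 FPKM. The 5 fibroblast markers summed to 289 to 808 FPKM and the 4 smooth muscle and pericyte markers to 478 to 2040, and the highest library of both lists was in Ctrl DM3. In every group all 5 fibroblast markers but only 2 of the 4 smooth muscle and pericyte markers reached 0.5 FPKM in both libraries. Of the 7 muscle fibre markers, 4 did so in Ctrl DM3 and 1 in each other group. Of the 7 myoblast and new fibre markers, 5 did so in Ctrl DM3, 4 in Ctrl GM and Cas9M3 DM3 and 3 in Cas9M3 GM. The part of differentiation and of cell division in the levels of Nes, Des and the lamins was not tested.

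Related genes called in cells were few. In control DM3 against GM, where 0.767% of all genes were called higher, 1 of 16 nuclear envelope genes was, Tmem38a. Its log2 fold change was 1.84 (SE 0.22, adjusted p = 0.0297, and 0.245 in the fit of only these 4 libraries). It read 6.34 and 9.38 FPKM in GM and 27.0 and 28.6 in DM3. In DM3 the same gene was called lower in the knockdown (-2.19, SE 0.22, adjusted p = 0.0197), at 6.15 and 5.88 FPKM. Of 9 tested desmin partners, 1 was called lower there, beside 0.687% of all genes. This was Trim54 (-5.30, SE 0.91, adjusted p = 0.0492), which read 17.4 and 18.7 FPKM in Ctrl DM3 and 0.45 and 0.284 in Cas9M3 DM3. That call was lost with scaling to total reads (adjusted p = 0.0761), with a pseudocount of 0.01 (0.0687) and without a filter (0.0608). Lists of other filaments, processing enzymes and plakins had 0 called in every cell comparison by limma.

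Over the 8 cell libraries, the genes closest to Nes were Cdon (distance 0.262), Dll1 (0.278) and Aif1l (0.382) among 11549 genes, where Nes itself varied by 1.45. Closest to Des were Cacnb1 (0.328), Plpp7 (0.331) and Pgam2 (0.356). Closest to Lmna was Sgf29 (0.091), to Vim Fam173a (0.102), to Plec Ttyh3 (0.148), to Synm Arl5b (0.206) and to Sync Fgf11 (0.276). For no member was a gene listed here among its 3 closest in muscle.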

How the data were processed

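RNA was extracted with TRIzol and sequenced from SMARTER mRNA-Seq libraries. Per the study's methods, the authors aligned reads with HISAT2 to GRCm38 (also named mm10 in the submitters' processing notes), used featureCounts for counts per gene, and took the deposited FPKM from DESeq2's fpkm function, whose size factors scale libraries to a typical gene rather than to total reads; versions and the strand setting are not given in the sources used here. Those FPKM were tested with limma 3.58.1 (R 4.3.3, lmFit and eBayes with trend) on log2(FPKM + 0.1), for genes at 0.5 FPKM or more in at least 2 libraries. The groups of each table were fitted together, and p-values were adjusted by Benjamini-Hochberg over all genes tested, with 0.05 as the threshold. Folds on this scale understate changes of low genes. Reads per library were recovered from the steps between low FPKM values, of which 96.44% to 98.74% came out whole within 0.02 of a read. In cells all 6 correlations of same-numbered libraries lay between 0.278 and 0.68, but the labels state no pairing. Every replicate 2 was also the shallower library with more ribosomal RNA reads. A pairing of cultures and that shared difference cannot be told apart.

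Groups came from the labels. The members and the gene lists were chosen with earlier results of these data known, so no list is independent support. Related genes were named as the 2 largest called changes for the lists and comparisons described, and Hspb8, Sun2, Jup and genes named as staying called were chosen after their values were seen. Gene positions are from GENCODE M21. Code was tested on simulated data. Alternatives were other pseudocounts, filters and scalings, the replicate block, a fit of only the groups compared, an Xist term and leaving out each library. The genes closest to Lmnb1 in cells are not reported here.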

Additional observations from a re-analysis of the deposited data

How the results depend on the processing

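Of 104 member comparisons 19 were called, and these numbers of the 19 stayed called: 19 with a filter at 1 FPKM, median-ratio scaling or a pseudocount of 1, 18 with a pseudocount of 0.01, 17 with the replicate block, 15 with quantile normalization or scaling to total reads, 13 without a filter, 9 in fits of only the groups compared and 7 of 17 in muscle with the Xist term. The cause of these losses was not tested, and those with the Xist term partly repeat the leaving out of a day 3 library. The pairing of libraries by replicate number changed 2 calls, Sync on day 1 against day 0 (adjusted p = 0.0592, leaving 0 members called) and Des on day 10 against day 3 (0.0506), both in muscle, where same-numbered libraries correlated at -0.019 to 0.211 and only 2 of 10 correlations passed 0.1, so those share only a number; over all genes the block called 463 in place of 47 on day 10 against day 5. In cells the block changed no call of a member.

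Members called changed as follows. With a log2 fold change of at least 2 required as well, 0 were called on day 1 against day 0, 3 on day 3 against day 0, 1 on day 5 against day 0, 0 on day 3 against day 1, 0 on day 5 against day 3 and 1 on day 10 against day 3. Of all 16753 genes, those higher and lower were 225 and 23, 1584 and 641, 706 and 160, 789 and 220, 91 and 189, and 365 and 1022 in that order. In fits of only the groups compared the counts for the pairs of days 1 and 0, 5 and 0, 3 and 1, 5 and 3, and 10 and 3 came to 0, 0, 1, 3 and 3, with 0 in control DM3 against GM and 4 in knockdown against control in DM3. Of all genes those fits called 0, 1340, 2835, 2972 and 4529 of 16753 in muscle, and 0 and 2637 of 13824 in cells. Without a filter 0 members stayed called on day 1 and 1 on day 5 against day 0, 1 on day 3 against day 1 and 0 on day 5 against day 3. Of 31329 genes, 418, 2914, 4703 and 1688 were called there in that order. Quantile normalization gave 0 on day 1 and 5 on day 5 against day 0, where 619 and 3667 of all 16753 genes were called. Scaling to total reads gave 6 on day 5 against day 0 and 4 on day 3 against day 1, where 4361 and 6763 of all genes were called. The Xist term gave 0 on day 1 and on day 5 against day 0, on day 3 against day 1 and on day 5 against day 3, and 2 on day 10 against day 3. Of all 16753 genes it called 0 on days 1 and 5 against day 0 and on day 5 against day 3, so those losses are not particular to members. It called 1369 genes on day 3 against day 1 and 3923 on day 10 against day 3. On the scale of FPKM + 1, the mean log2 Lmna to Lmnb1 ratio was 2.06 on day 0, 2.45 on day 10 and 3.04 in Ctrl DM3.

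Directions that turned were these log2 fold changes. Under quantile normalization Plec became 0.126 on day 1 and 0.123 on day 5 against day 0 and -0.044 on day 10 against day 3, Des 0.781 on day 3 against day 0, 0.003 on day 3 against day 1 and -0.338 on day 10 against day 3, Sync -0.068 and -0.024 on day 10 against days 3 and 5, and Synm 0.021 for the difference of knockdown effects (0.041 with a pseudocount of 1). Under scaling to total reads Plec became 0.263, 0.272 and 0.258 on days 1, 3 and 5 against day 0, 0.009 on day 3 against day 1, -0.014 on day 5 against day 3 and -0.435 on day 10 against day 3, Des 0.337 on day 3 against day 0, Sync 0.16 on day 3 against day 1, -0.584 (adjusted p = 0.0423) and -0.136 on day 10 against days 3 and 5, and Des 0.168 and Nes 0.203 for knockdown in GM. With the Xist term Plec became 0.523 and 0.392 on days 1 and 5 against day 0, Lmnb1 -0.185 on day 1 against day 0, and Sync 0.186 on day 5 against day 3, -0.072 and -0.258 on day 10 against days 3 and 5.

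With each library left out in turn, a library left alone in its group was assumed to vary like the other groups, so effect sizes are given. Without Ctrl GM replicate 1, the log2 fold changes of control DM3 against GM were -1.48 for Vim, -1.13 for Lmna, 3.58 for Sync, 2.28 for Synm and -1.47 for Lmnb1. That fit rests on Ctrl GM replicate 2, the shallowest cell library, with 28.74% of its reads on 3 ribosomal RNA loci. Log2 fold changes that changed sign ran from -0.126 to 0.11 (Plec, day 1 against day 0), -0.196 to 0.302 (Lmnb1, day 10 against day 0), -0.364 to 1.42 (Nes, day 3 against day 1), -0.214 to 0.186 (Sync) and -0.359 to 0.263 (Lmnb1) on day 5 against day 3, -0.072 to 0.328 (Sync, day 10 against day 3), -0.086 to 0.818 (Synm) and -0.313 to 0.029 (Plec) on day 10 against day 5. In cells they ran from -1.07 to 0.006 (Plec, control DM3 against GM), -1.71 to 0.529 (Des) and -0.328 to 0.512 (Vim) in knockdown DM3 against GM, -0.227 to 0.462 (Synm) and -0.703 to 0.371 (Plec) in knockdown against control in DM3, and -0.607 to 0.404 (Lmna), -1.11 to 0.911 (Synm) and -0.821 to 0.253 (Plec) for the difference of effects. For knockdown in GM all 8 turned, with -1.19 to 1.04 for Des, -1.11 to 0.084 for Vim, -0.403 to 0.322 for Nes, -0.794 to 1.23 for Synm, -0.549 to 1.77 for Sync, -0.018 to 0.254 for Plec, -0.892 to 0.119 for Lmna and -0.507 to 0.927 for Lmnb1.

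Scaling to total reads moved the median log2 fold change of all genes to 0.24, 0.36 and 0.11 on days 1, 5 and 10 against day 0, to 0.51 on day 3 against day 1, -0.43 on day 5 and -0.68 on day 10 against day 3, -0.25 on day 10 against day 5, 0.23 in control DM3 against GM, 0.22 for knockdown in GM and -0.23 for the difference of effects. Counts over all genes moved by over 1.5 times in these cases. Day 1 against day 0 went from 1005 to 418 without a filter, 619 with quantile normalization and 0 in a fit of only its groups or with the Xist term, day 5 against day 0 from 4267 to 1340 and 0 in the last 2, day 3 against day 1 from 5213 to 2835 and 1369, day 5 against day 3 from 2126 to 4231 with total reads and 0 with the Xist term, and day 10 against day 3 from 6346 to 3923 with the Xist term. Day 10 against day 5 went from 47 to between 0 (fit of only its groups) and 463 (block), and day 10 against day 0 from 1 to between 0 and 28 (no filter). Control DM3 against GM went from 158 to between 0 (fit of only its groups) and 411 (block), knockdown against control in DM3 from 274 to between 127 (total reads) and 2637 (fit of only its groups), and knockdown DM3 against GM from 4 to between 0 (fit of only its groups) and 94 (pseudocount of 1). Genes with few reads, such as Synm in cells, are the least precise here, and with 2 libraries a group a difference that was not called may still exist.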
